A study of Mus musculus with 4 samples.

Results

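The 10 genes described here are products that mark fat cells: the secreted proteins Adipoq, Lep and Cfd, the lipid droplet proteins Plin1, Plin4 and Cidec, the lipid supply proteins Lpl and Fabp4, the carbonic anhydrase Car3, and Ucp1, which marks brown fat cells. They were found by their symbols in the authors' deposited comparison table, each on 1 probe set (transcript cluster) of the 30861 genes with a symbol on the array. RNA of colon from Balb/c mice had been hybridised to Mouse Gene 2.0 ST arrays after the mice had drunk either water alone (control, arrays 1 and 2) or water with 5% maltodextrin, a polysaccharide made from starch (maltodextrin, arrays 3 and 4), for 45 days. All animals were of one strain, and the labels used here give no age, sex, genotype or part of the colon. Whether each array stands for a different mouse is not stated, so p-values measure the spread between these arrays, which may be technical. Levels below are log2 intensities and a difference is the maltodextrin mean less the control mean, in log2 units. One array stood apart before any comparison: control 2 carried pancreatic transcripts, with a median of 9.12 over 12 acinar markers against 4.66 to 4.86 on the other arrays.

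White fat cells hold most of their volume as a single lipid droplet, coated by perilipins and enlarged by Cidec. They take up fatty acids that lipoprotein lipase releases from blood lipids, carry them on Fabp4, and secrete hormones such as adiponectin and leptin. Brown fat cells hold many small droplets and burn fatty acids through the uncoupling protein Ucp1. Fat cells are not a cell type of the colon mucosa, while the mesentery that carries vessels to the colon is rich in them, and the labels do not say how much of it was trimmed away.

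The groups overlapped for 7 of the 10 genes, and the arrays of a group lay apart: control 2 was the highest array for 8 of the 10, as it was for 24.6% of all named probe sets, and maltodextrin 4 was the lowest for 9, as for 20.5% of all. Plin4, highest on maltodextrin 3, and Ucp1, highest on control 1 and lowest on control 2, were the exceptions. None of the 10 passed the test, at an adjusted p of 0.05 or at the nominal criterion used below, which 12.1% of all named probe sets met in either direction. All 10 differences were below 0, from -1.85 for Cfd to -0.06 for Ucp1, beside 54% of all named probe sets, though Ucp1 was 0.09 with quantile normalization applied again and 0.01 with arrays centred on their medians. Background was also lower on the maltodextrin arrays. Its guide, olfactory and vomeronasal receptor probe sets (see Lep), had medians of 4.0 and 3.4 on the controls. On maltodextrin 3 and maltodextrin 4 the medians were 3.33 and 3.32. Adipoq, Plin1, Lep and Ucp1 had means below the 95th percentile of these probe sets. The part of background in their differences was not tested.

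Upstream sequence was at hand for 7 of the 10 genes (RefSeq, GRCm38.p6) and is shown for the 3 secreted proteins, since fat cells are the main source of each. Each line gives the 250 bases before the annotated start, 5′ to 3′, in lower case. Capitals mark matches on either strand to TTGCGCAA (a palindrome bound by C/EBP factors, which drive fat cell differentiation), CCAAT (the element bound by NF-Y), the nuclear receptor half-site AGGTCA or the TATA box, searched as TATAAA.
Adipoq, chr16:23146286-23146535, plus strand: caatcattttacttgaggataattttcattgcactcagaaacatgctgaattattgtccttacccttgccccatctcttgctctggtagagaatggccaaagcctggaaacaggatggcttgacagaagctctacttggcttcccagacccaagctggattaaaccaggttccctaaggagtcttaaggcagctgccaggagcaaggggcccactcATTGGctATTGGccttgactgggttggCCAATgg
Cfd, chr10:79890603-79890852, plus strand: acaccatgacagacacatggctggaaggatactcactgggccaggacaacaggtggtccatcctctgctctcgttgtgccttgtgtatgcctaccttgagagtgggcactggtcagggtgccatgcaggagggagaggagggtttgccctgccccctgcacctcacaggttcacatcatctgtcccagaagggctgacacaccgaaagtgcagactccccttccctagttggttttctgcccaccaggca
Lep, chr6:29059971-29060220, plus strand: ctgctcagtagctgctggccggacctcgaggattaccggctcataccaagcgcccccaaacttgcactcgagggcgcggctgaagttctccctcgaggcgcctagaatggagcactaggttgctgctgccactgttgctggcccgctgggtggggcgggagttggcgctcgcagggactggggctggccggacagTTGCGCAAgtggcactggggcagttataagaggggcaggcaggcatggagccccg
The Adipoq window holds 3 CCAAT matches, beginning 34, 27 and 7 bases before the start, the first and second of them on the opposite strand. The Lep window holds TTGCGCAA, beginning 55 bases before the start, a sequence found in 0.164% of the 32851 upstream windows in the same table. CCAAT stands in 33.8% of these windows, AGGTCA in 14% and TATAAA in 12.4%, and the Cfd window holds none of the 4. Of the other members in the table, Plin4 has 1 CCAAT match and Ucp1 has 1 AGGTCA match. The starts used for Plin1 and Plin4, and a second start of Cidec, lie inside the gene spans given below. The Plin4 match thus falls within its gene span. No motif is shared by most of the members, and a match in letters is a description only.

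Of the secreted proteins, Adipoq (adiponectin, an insulin-sensitising hormone; chromosome 16, 23146536 to 23157968) measured 5.65 on control 1, 6.51 on control 2, 5.86 on maltodextrin 3 and 4.55 on maltodextrin 4. Its groups overlapped: maltodextrin 3 lay above control 1. The values on control 1 and maltodextrin 4 were below the background guide of their arrays, given under Lep. No fold is printed from them, and the 2-fold count below includes this gene with that limit. Control averaged 6.08 (SD 0.61, n = 2) and maltodextrin 5.21 (SD 0.93, n = 2), a difference of -0.87 (SE 0.54; limma adjusted p = 0.494).

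Cfd (adipsin, the complement factor D protease; chromosome 10, 79890853 to 79892655) set a single array apart. It measured 6.34 on control 1 and 9.21 on control 2, against 6.57 on maltodextrin 3 and 5.29 on maltodextrin 4. Control 1 lay 0.67 below the background guide of its array, given under Lep, and maltodextrin 4 lay 0.02 below that of its own. No fold is printed between the controls, and the 2-fold counts below include this gene with that limit. Cfd had the largest difference between groups of the 10, -1.85 (SE 1.05; limma adjusted p = 0.46), and without control 2 it was -0.41.

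Lep (leptin, the satiety hormone; chromosome 6, 29060221 to 29073876) measured 4.91 on control 1, 5.59 on control 2, 4.82 on maltodextrin 3 and 3.86 on maltodextrin 4. Both maltodextrin arrays were below both controls, by a gap of 0.08. The difference was -0.91 (SE 0.42; limma adjusted p = 0.402). As a guide to background, the 1480 probe sets of olfactory and vomeronasal receptors, which the colon is not known for, had a 95th percentile of 7.01 on control 1, 5.55 on control 2, 5.26 on maltodextrin 3 and 5.32 on maltodextrin 4. Lep exceeded this level on control 2 alone, by 0.05, and Adipoq exceeded it on control 2 and maltodextrin 3. Control 1 thus had the highest background level of the 4 arrays.

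**Figure D1:**
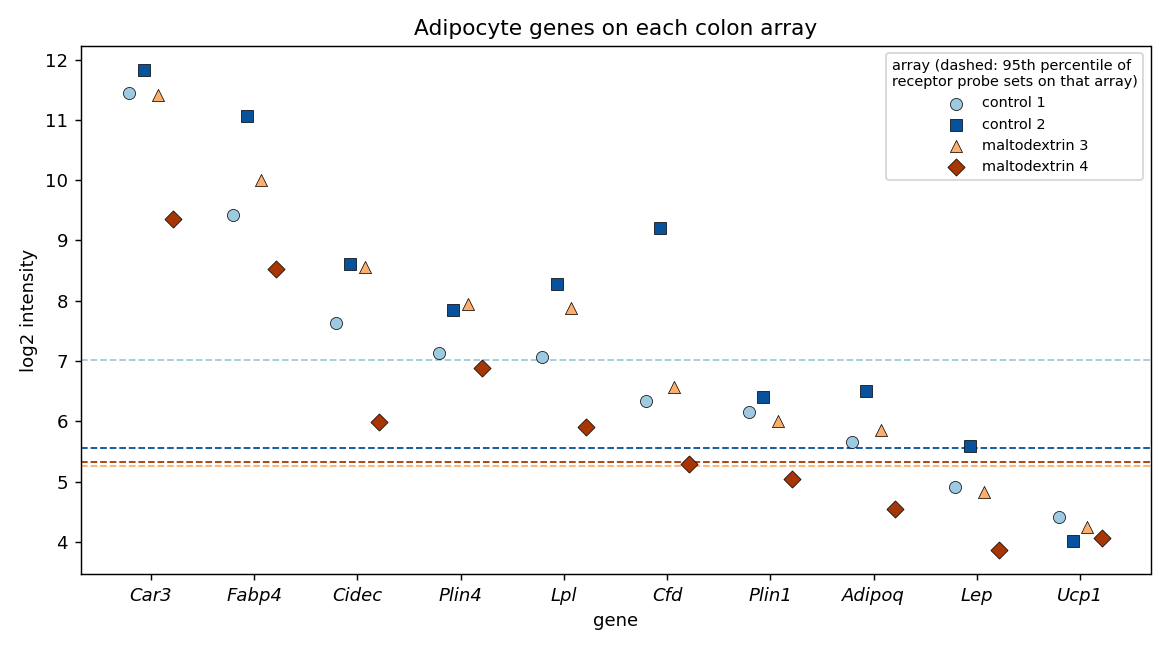
Log2 intensity (vertical axis) of the 10 adipocyte genes on each array, ordered by mean; every point is 1 array, and dashed lines give the 95th percentile of receptor probe sets on the array of the same colour. Control 2 is the highest point for 8 genes and maltodextrin 4 the lowest for 9, and Ucp1 lies under the dashed line of its own array on all 4.

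Of the lipid droplet proteins, Plin1 (perilipin 1, the fat cell droplet coat that gates lipolysis; chromosome 7, 79721164 to 79732904) measured 6.15 and 6.41 on the controls and 6.00 and 5.05 on maltodextrin 3 and maltodextrin 4. Its groups did not overlap, with a gap of 0.15 between the lowest control and the highest maltodextrin array. The values on control 1, which sets this gap, and on maltodextrin 4 were below the background guide of their arrays. The difference was -0.75 (SE 0.37; limma adjusted p = 0.412).

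Plin4 (perilipin 4, a coat protein of small and newly formed droplets; chromosome 17, 56100587 to 56109948) measured 7.13 on control 1, 7.84 on control 2, 7.95 on maltodextrin 3 and 6.88 on maltodextrin 4. Here maltodextrin 3 was the highest array, with control 2 close to it, and the groups overlapped. The difference of -0.07 (SE 0.45; limma adjusted p = 0.955) turned to 0.28 without control 2 and to 0.46 without maltodextrin 4.

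Cidec (a droplet protein that lets small droplets fuse into large ones; chromosome 6, 113424634 to 113435760) measured 7.63 on control 1, 8.61 on control 2, 8.56 on maltodextrin 3 and 5.99 on maltodextrin 4. The maltodextrin arrays were 5.95-fold apart, the widest such gap of the 10 genes, and maltodextrin 3 stood level with control 2. The difference of -0.84 (SE 0.92; limma adjusted p = 0.682) became 0.44 without maltodextrin 4.

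Of the lipid supply proteins, Lpl (lipoprotein lipase, which frees fatty acids from circulating triglyceride; chromosome 8, 68880555 to 68906932) measured 7.07 on control 1, 8.27 on control 2, 7.88 on maltodextrin 3 and 5.91 on maltodextrin 4. The spread within each group exceeded the difference of -0.77 (SE 0.78; limma adjusted p = 0.656), which was 0.21 without maltodextrin 4. Fabp4 (the fatty acid carrier of fat cells, also made by endothelium and macrophages; chromosome 3, 10204342 to 10208616) measured 9.43 on control 1, 11.06 on control 2, 10.01 on maltodextrin 3 and 8.52 on maltodextrin 4. Arrays of the same group were thus 3.09-fold and 2.82-fold apart, more than the 1.98-fold between the group means (difference -0.99, SE 0.75; limma adjusted p = 0.561). Without control 2 the difference was -0.17, and without maltodextrin 4 it was -0.24.

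Car3 (carbonic anhydrase 3, abundant in fat cells and in slow skeletal muscle; chromosome 3, 14863538 to 14872381) was well above the receptor level on every array. It measured 11.44 and 11.83 on the controls, 11.42 on maltodextrin 3 and 9.36 on maltodextrin 4. Only maltodextrin 4 stood apart: maltodextrin 3 lay 0.02 below control 1, and the groups were separated by no more than that. The difference was -1.25 (SE 0.71; limma adjusted p = 0.461), and without maltodextrin 4 it was -0.22.

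Ucp1 (chromosome 8, 83290348 to 83298456) departed from the pattern. Its values of 4.41, 4.01, 4.24 and 4.06, in the order control 1, control 2, maltodextrin 3 and maltodextrin 4, all lay below the receptor level of their array. They spanned 0.40, a range exceeding that of 26% of named probe sets, and the difference was -0.06 (SE 0.22; limma adjusted p = 0.912). No brown fat signal was thus detectable above background by this gene. Of 12 other genes listed for brown fat, 8 had means below the receptor level of 5.92 over the 4 arrays, among them Cidea, Dio2 and Cox8b. The 4 above it are also made outside brown fat: Pdk4, a kinase that spares glucose, Cox7a1, a respiratory chain subunit, Ppargc1a, a coactivator, and Slc27a2, a fatty acid transporter. Slc27a2 alone of the 12 met the nominal criterion, as higher (0.62, SE 0.20; limma adjusted p = 0.307). That is near the 8.51% of all named probe sets that were higher. Its value on control 1, 5.89, lay below the background guide of that array. Pdk4 was 8.43 on maltodextrin 3 and 6.24 to 6.95 on the other arrays.

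**Figure D2:**
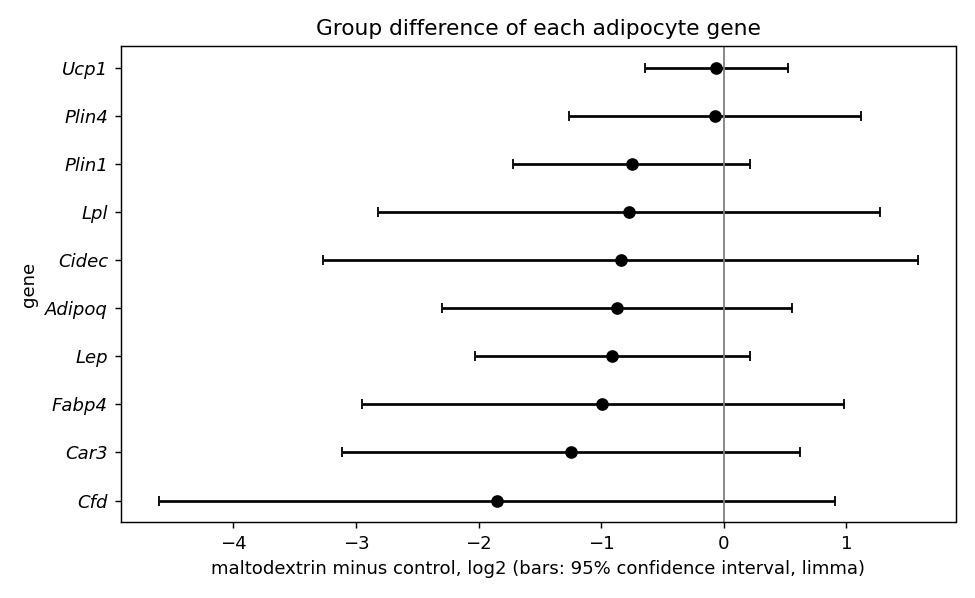
Maltodextrin minus control (horizontal axis, log2) for each adipocyte gene, with 95% confidence intervals from the limma fit (2 arrays per group). Every point is below 0 and every interval crosses 0, from -4.61 to 0.91 for Cfd and from -0.64 to 0.52 for Ucp1.

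In the comparison of maltodextrin with control, limma called 0 of 32202 named probe sets at an adjusted p of 0.05, and 14.6% of them had an unadjusted p under 0.05 by the same fit. At the nominal criterion, an unadjusted p under 0.05 with a fold of at least 1.5, 8.51% of all named probe sets were higher and 3.56% lower. None of the 10 adipocyte genes met it in either direction, and 0 had an unadjusted p under 0.05. None met it in the authors' deposited table either, where the smallest p-value of the 10 was 0.264 for Lep and the ratio of maltodextrin to control ran from 0.278 for Cfd to 0.958 for Ucp1. The median difference over the 10 was -0.86, against -0.04 over all named probe sets. Background was also higher on the controls, and its part in this median was not tested. The 6 members with a mean above the receptor level of 5.92 had a median of -0.91. All named probe sets above that level had a median of 0.21. The maltodextrin arrays lay below both controls without overlap for 3 of the 10 genes (Plin1, Lep and Car3, by gaps of 0.15, 0.08 and 0.02), and for 24.7% of all named probe sets. The intervals are wide, so the data neither show a difference nor bound it tightly: that of Fabp4 ran from -2.95 to 0.98 and that of Adipoq from -2.30 to 0.56. With bulk tissue, fewer fat cells and less of these RNAs per fat cell cannot be told apart.

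Leaving out single arrays moved the median difference further than other normalizations, filters and tests did, which kept it between -0.89 and -0.79. The median over the 10 was -1.63 without maltodextrin 3 and -1.32 without control 1, but -0.38 without control 2 and -0.22 without maltodextrin 4. Each of these fits leaves a single array in a group, so the counts that follow describe that array and do not test the group. For Adipoq, Plin1 and Lep, the values on control 1 and maltodextrin 4 lay below the background guide of their arrays. Without maltodextrin 3, where the lone maltodextrin array is assumed to vary like the controls, Adipoq, Plin1, Lep, Lpl, Cidec and Car3 met the nominal criterion as lower, beside 0.978% of all named probe sets. Without control 1, Lep and Cfd met it, beside 7.79% of all. Without control 2 or without maltodextrin 4 the count was 0.

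**Figure D3:**
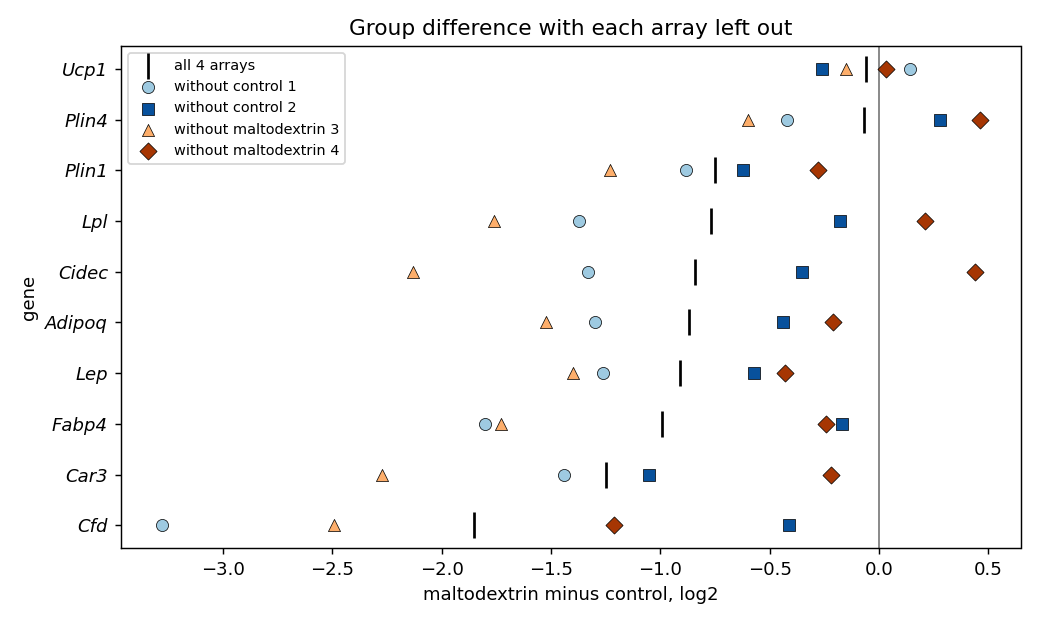
Maltodextrin minus control (horizontal axis, log2) for each adipocyte gene with all 4 arrays (bar) and with 1 array left out (coloured points). Leaving out maltodextrin 4 brings the difference nearer to 0 for all genes but Plin4, with Lpl, Cidec, Plin4 and Ucp1 above 0, and leaving out control 2 does so for 8 of the genes, with Plin4 above 0.

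The median of the 10 was -1.29 from maltodextrin 3 to maltodextrin 4 and 0.78 from control 1 to control 2, beside the -0.86 between the groups. From maltodextrin 3 to maltodextrin 4, 7 of the 10 genes were at least 2-fold lower (Adipoq, Plin4, Fabp4, Cfd, Lpl, Cidec and Car3), where 1.02% of all named probe sets were that much lower. Plin1 and Lep were just short of it, at -0.95 and -0.97. For Adipoq, Cfd, Plin1 and Lep the maltodextrin 4 value lay below the background guide of that array, so the size of these steps is uncertain. From control 1 to control 2, 3 of the 10 were at least 2-fold higher (Cfd, Fabp4 and Lpl), where 3.22% of all named probe sets were, and 9 of the 10 were higher by any amount. Of these 3, Cfd lay below the background guide on control 1. None was at least 2-fold lower on control 2, as 5.62% of all named probe sets were. The order with control 2 highest and maltodextrin 4 lowest held for 8 of the 10 and for 7.23% of all named probe sets. With 1 array on each side there is no test of these contrasts, and the order was picked out after the values were seen. Among the 13340 named probe sets with a mean above the receptor level of 5.92, the shares were 1.52%, 5.52% and 5.46%.

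**Figure D4:**
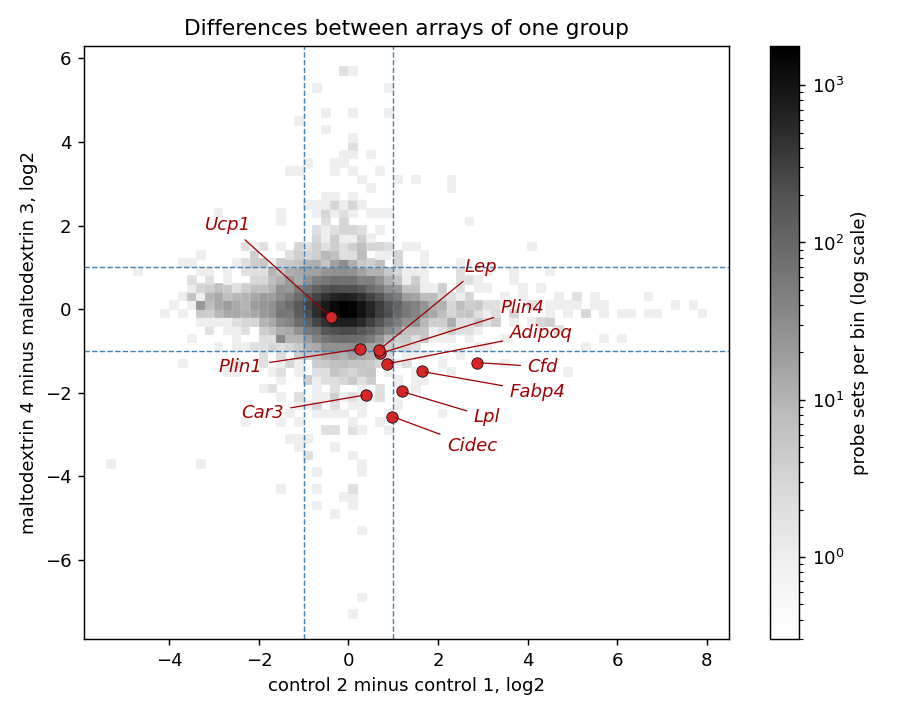
Control 2 minus control 1 (horizontal axis, log2) against maltodextrin 4 minus maltodextrin 3 (vertical axis, log2). Grey squares count all named probe sets per bin on a log scale, red points are the 10 adipocyte genes, and dashed lines mark 2-fold; 9 of the red points lie to the right of 0 and all 10 below 0.

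A minority of other fat cell genes shared the pattern. Of 32 further genes listed for fat cells, control 2 was highest and maltodextrin 4 lowest for 6: Thrsp, Retn, Scd1, Fasn, Acaca and the fatty acid transporter Cd36, a share lower than among the 10 members but above the 7.23% of all named probe sets, with no test of either. Retn, resistin, which is secreted by mouse fat cells, measured 9.28 on control 1, 9.83 on control 2, 8.82 on maltodextrin 3 and 7.20 on maltodextrin 4. Thrsp, a lipogenic protein, was 8.35 on control 2 and 5.60 to 6.11 on the other arrays, much as Cfd was. The other listed genes with the widest ranges ran the other way between the controls. Bscl2, seipin, which shapes new droplets, was 10.11 on control 1 and 9.02 on control 2, and Dgat1, which makes triglyceride, was 8.99 and 7.42. Pparg was highest on maltodextrin 3, at 10.35, and Lipe and Pnpla2 spanned only 0.41 and 0.44 over the arrays. The median step from control 1 to control 2 was 0.09 over the 32 genes, beside 0.78 over the 10 members.

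At the nominal criterion, 4 of these 32 genes were lower and 3 higher, with none past an adjusted p of 0.05. Of all named probe sets, 3.56% were lower and 8.51% higher, so the count of higher genes was near its share. Of the 17845 with a mean log2 of at least 5, 564 were lower and 2490 higher. The lower ones were the lipogenic enzymes Scd1 (-1.02), Fasn (-0.85) and Acaca (-0.81), and the amino acid transporter Slc36a2 (-0.78). The higher ones were Rbp4 (1.13), a retinol carrier, Bscl2 (1.26) and Agpat2 (0.82), an enzyme of triglyceride synthesis. Their median difference was 0.02. Lipogenic enzymes are made by epithelium as well as by fat cells, so these genes are not specific marks of fat.

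Of the partners of lipoprotein lipase, 4 of 8 had a mean above the receptor level, and none had the order with control 2 highest and maltodextrin 4 lowest. Lmf1, which folds lipases in the ER, was higher at the nominal criterion, with 7.83 and 7.82 on the controls and 8.77 and 8.69 on the maltodextrin arrays (difference 0.90, SE 0.17; limma adjusted p = 0.239). It was the only one of the 8 to meet it, where 8.51% of all named probe sets were higher. Gpihbp1, which anchors the lipase on capillaries, was not among the 4. Angptl4, an inhibitor of the lipase, differed by 0.51, Sel1l, an adaptor of ER-associated degradation that the lipase needs to mature, by 0.27 and the lipoprotein receptor Vldlr by 0.43, and none of these met the criterion.

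Genes listed as receptors for the secreted proteins had differences of the other sign. The list held 6 names, not all of them receptors of a member. Lepre1 is a collagen-modifying enzyme and no receptor, and C3ar1 binds the complement fragment C3a, not Cfd. All 6 differences were above 0, with a median of 0.45, where the median over named probe sets with a mean above the receptor level, as all 6 had, was 0.21, and C3ar1 and Lepr met the nominal criterion as higher, as 8.51% of all named probe sets did. Of 17845 named probe sets with a mean log2 of at least 5, 2490 met it as higher. C3ar1, a complement receptor also found on macrophages, measured 6.01 and 5.68 on the controls and 7.38 and 7.44 on the maltodextrin arrays (difference 1.57, SE 0.20; limma adjusted p = 0.224). Lepr, the leptin receptor, measured 5.81 and 6.21 against 7.10 and 6.70 (difference 0.89, SE 0.25; limma adjusted p = 0.284). The maltodextrin arrays thus lay above both controls for Lepr, as for 25.6% of all named probe sets, while Lep itself lay close to background. On control 1, C3ar1 and Lepr also lay below the background guide of 7.01, so the size of both differences is uncertain. Adipor1 and Adipor2, the receptors of adiponectin, differed by 0.21 and 0.36.

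Among 26 relatives of the 10 genes by family, control 2 was highest and maltodextrin 4 lowest for 2, Fabp6 and Pnlip (pancreatic lipase), a share near the 7.23% of all named probe sets. Of the perilipins, the ubiquitous Plin2 measured 9.51, 9.69, 9.31 and 9.56 in the order control 1, control 2, maltodextrin 3 and maltodextrin 4, a flat profile beside that of Plin1. Fabp2, the fatty acid carrier of enterocytes, was 11.41 on maltodextrin 3 and 7.99 to 8.42 on the other arrays. The carbonic anhydrases Car8 and Car12 were likewise highest on maltodextrin 3, at 10.90 and 9.76, where Car3 was not. Maltodextrin 4 was thus low for Fabp2 and Car12 relative to maltodextrin 3 only, and for Fabp4 and Car3 relative to all the other arrays.

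Markers of other tissues show what else moved with the arrays. Control 2 carried pancreatic acinar transcripts: 11 of 12 were at least 2-fold higher there than on control 1, with Pnlip at 9.71 against 3.63 and Ctrb1, chymotrypsinogen, at 10.98 against 5.73. The summed linear intensity of the 12 was 1164 on control 1, 10863 on control 2, 1166 on maltodextrin 3 and 2723 on maltodextrin 4. For the 10 adipocyte genes the sums were 4194 and 7543 on the controls, and 4888 and 1393 on the maltodextrin arrays. These sums are led by Car3 and Fabp4, the brightest of the 10, which are also made outside fat cells. Pancreatic and fat transcripts were thus both highest on control 2, while the higher pancreatic sum of maltodextrin 4 came with Clps, colipase, at 11.09 there against 9.11 to 9.64 elsewhere. The part of attached pancreas in the fat values was not tested.

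Most smooth muscle genes had the same highest and lowest arrays, by smaller steps. Control 2 was highest and maltodextrin 4 lowest for 7 of 10, among them Myh11, smooth muscle myosin, with 11.52 on control 1, 12.49 on control 2, 11.36 on maltodextrin 3 and 10.83 on maltodextrin 4. All 10 were lowest on maltodextrin 4, and Synm, synemin, was lower at the nominal criterion (-1.02, SE 0.37; limma adjusted p = 0.336). None of the 10 was 2-fold apart within either group, where 7 of 10 adipocyte genes were so within the maltodextrin pair. Among those 7, Adipoq and Cfd lay below the background guide on maltodextrin 4. Summed intensities of smooth muscle genes were 32151 and 35212 on the controls, and 29342 and 22249 on the maltodextrin arrays. Control 1 thus lay above maltodextrin 3, where the sum of the adipocyte genes lay below it. That sum is led by Car3 and Fabp4, and single members differed. Plin1, Lep, Car3 and Ucp1 were lower on maltodextrin 3 than on control 1, and the other members were higher. The part of outer wall tissue in the fat values was not tested.

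Fabp4 and Lpl are also made outside fat cells, Fabp4 by endothelium and both by macrophages. For endothelium, 9 of 10 markers had a mean above the receptor level and summed to 1914 and 1899 on the controls, and to 2360 and 2277 on the maltodextrin arrays. For macrophages, 9 of 10 were above it and summed to 4026 and 4184, and to 4479 and 6301, highest on maltodextrin 4. At the nominal criterion, 6 macrophage genes and 3 endothelial genes were higher and 0 of either list lower. Of all named probe sets, 8.51% were higher and 3.56% lower. Brighter probe sets were more often higher: of 17845 with a mean log2 of at least 5, 2490 were higher and 564 lower. Emr1, the F4/80 surface protein of macrophages, was at 6.50 and 5.47 on the controls and 7.97 and 8.39 on the maltodextrin arrays. Both control values of Emr1 lay below the background guide of their arrays, 7.01 and 5.55. No marker of either list had control 2 highest and maltodextrin 4 lowest. The part of these cells in the Fabp4 and Lpl values was not tested.

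Mesothelium covers the outer surface of the colon and its mesentery, and 1 of its 8 markers, Krt19, followed the order. Of its 8 markers, 4 had a mean above the receptor level. Upk3b measured 8.20 on control 1, 6.96 on control 2, 7.68 on maltodextrin 3 and 7.53 on maltodextrin 4, so it was lowest on the array where fat genes were highest. Msln, mesothelin, was also lowest on control 2, at 5.82 against 7.35 on control 1. The 8 markers summed to 2899 and 3115 on the controls and 2683 and 2596 on the maltodextrin arrays, a sum led by Krt19, which colon epithelium also makes.

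Fibroblast genes were above the receptor level for 8 of 10 markers and summed to 6685 and 7045, and to 8299 and 8647, in the same order of arrays. The list was mixed on control 2: Col3a1, a fibrillar collagen, was highest there at 10.31 against 7.96 to 8.28, while Cd34, a progenitor surface protein, was lowest there at 8.42 against 9.44 to 10.14. Its median deviation on control 2 was -0.22. Skeletal muscle, another source of Car3, was near background, with 2 of 10 markers above the receptor level. Of these, Ckm, muscle creatine kinase, was 8.26 on maltodextrin 3 and 6.78 on maltodextrin 4, with 7.43 and 7.48 on the controls. The B cell genes ran in a different order, lowest on maltodextrin 3, where Cr2 was 6.21 against 8.09 to 9.28 elsewhere. Neuron and glia genes had 3 of 8 means above the receptor level and none with the order of the fat genes.

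The colon label held on every array. All 12 colon epithelial markers had means above the receptor level, and their summed intensities were 52587 and 49149 on the controls and 59054 and 49970 on the maltodextrin arrays. None of the 12 met the nominal criterion. Of those with the widest ranges, Car1, the colonocyte carbonic anhydrase, was 11.21 to 13.06 and Krt20, a keratin of surface colonocytes, was 11.32 to 12.46, with the lowest Krt20 on maltodextrin 4. The median epithelial marker deviated from its own 4-array mean by -0.07 to 0.11, while the median adipocyte gene deviated by 0.84 on control 2 and -1.17 on maltodextrin 4.

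**Figure D5:**
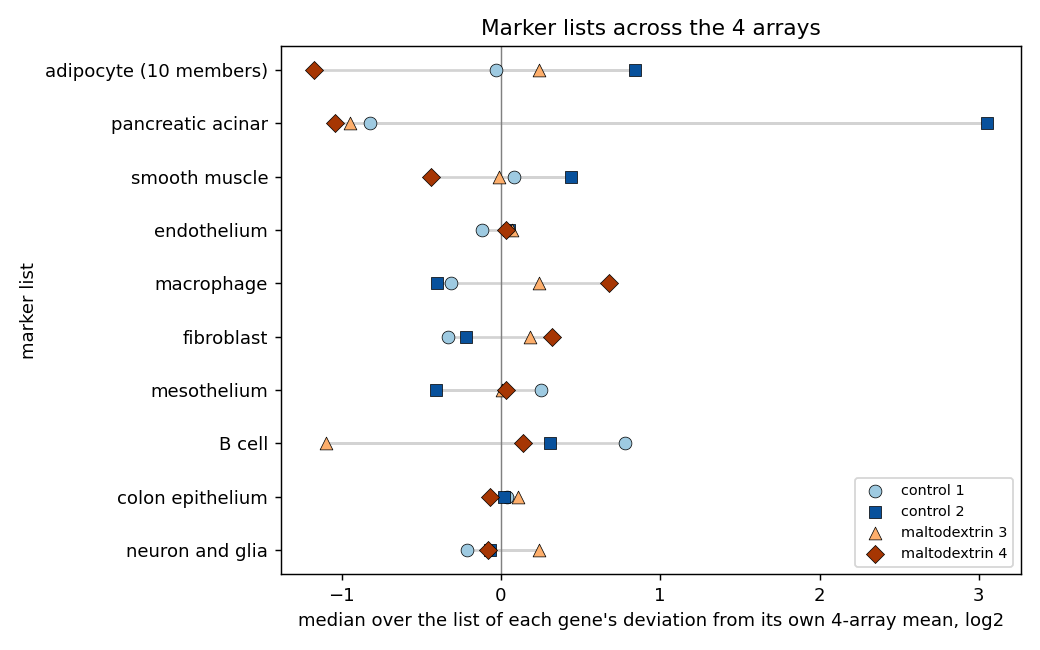
For each marker list, the median over its genes of the deviation from the gene's own 4-array mean (horizontal axis, log2), with 1 point per array. The adipocyte genes run from -1.17 on maltodextrin 4 to 0.84 on control 2, the pancreatic genes stand apart on control 2 alone at 3.05, and the endothelial and epithelial lists stay near 0.

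Among genes outside the 10, those with the profile most like Adipoq were sought among 11735 named probe sets with a mean above the receptor level. The measure was the root mean square, over the 4 arrays, of the difference between deviations from each gene's own mean. The nearest was Me1, malic enzyme, which supplies reducing power for fatty acid synthesis, at 0.19, with 6.97 on control 1, 8.36 on control 2, 7.45 on maltodextrin 3 and 6.15 on maltodextrin 4. The next were Sgk1, a kinase, at 0.21, Synpo2, an actin-binding protein of muscle, at 0.21, Myom1, a sarcomere protein, at 0.21, and Dmpk, a muscle kinase, at 0.23. Of the members, Lep lay nearer to Adipoq than any of these at 0.14, Lpl and Plin1 were at 0.26, Fabp4 at 0.28, Car3 at 0.36, Plin4 at 0.41, Cidec at 0.45, Ucp1 at 0.72 and Cfd at 0.86. Of the 11735 candidates, 6 were nearer to Adipoq than Lpl or Plin1 was, 13 than Fabp4, and 30 than Car3. The counts were 70 for Plin4, 140 for Cidec, 3629 for Ucp1 and 7102 for Cfd. Adipoq and Lep themselves had means below the receptor level that candidates had to pass. With 4 arrays such likeness is a description of these samples.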

How the data were processed

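RNA of 4 mouse colon samples was measured on 4 one-colour arrays, 2 per group by their labels. The deposited value table holds log2 intensities of 41345 probe sets. The submitters' processing notes list Partek 6.6. How background, normalization and probe set summaries were handled is not given in the sources used here. Array medians lay between 5.20 and 5.35, and the number of arrays limits the precision. The authors' deposited comparison table holds, per the file headers, a linear ratio, a signed fold (treated as a score) and p-values with and without step-up adjustment. The ratio on the log2 scale matched the group difference to within 8.7e-05. A filtered list and a sheet of notes were not used. Gene symbols are those of that table (32202 probe sets), and positions those of the RefSeq gene table (GRCm38.p6).

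Named probe sets were fitted together with limma 3.58.1 in R 4.3.3 (lmFit, eBayes, two-sided, Benjamini-Hochberg), checked on simulated data. Residual degrees of freedom were 2, with 2.62 added by the prior. With 2 arrays against 2, an exact permutation test cannot go below p = 0.333, so none was run. For a gene with several probe sets the one with the highest mean was taken. All members were named, then up to 4 genes with the widest range over the arrays in each of 15 other lists, and the 5 nearest to Adipoq among bright probe sets, leaving out predicted genes and clone names. Other genes were named after their values were seen, as parts of a count or for their role. The members and lists were chosen with earlier results of these data known. One listed gene had no probe set.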

Additional observations from a re-analysis of the deposited data

How the results depend on the processing

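All 4 arrays gave 0 members at the nominal criterion in each direction, and this count held for a filter at a mean log2 of 5 (8 members left), a second quantile normalization, median-centred arrays, unnamed probe sets included, a trended and robust eBayes, an equal-variance test, the authors' deposited p-values and a fold of at least 2. With 1 array left out, members lower ranged from 0 to 6 and members higher stayed at 0, and the median difference ranged from -1.63 to -0.22. In the other settings the median was -0.89 to -0.79. Of 108 differences of single members under an alternative, 100 kept their direction. Those that did not were Ucp1 at 0.09 with quantile normalization, 0.01 with centred arrays, 0.14 without control 1 and 0.03 without maltodextrin 4, Plin4 at 0.28 without control 2 and 0.46 without maltodextrin 4, and Lpl at 0.21 and Cidec at 0.44 without maltodextrin 4. Across leave-one-out fits these 4 genes ranged from -0.26 to 0.14 for Ucp1, -0.60 to 0.46 for Plin4, -1.76 to 0.21 for Lpl and -2.13 to 0.44 for Cidec, and the cause was not tested. None reached an adjusted p of 0.05 in any setting.

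Over all named probe sets, 3887 met the nominal criterion, against 1615 by the equal-variance test and also by the authors' deposited table, and 1394 at a fold of at least 2. With 1 array left out the count ranged from 1288 to 6894, and the count at an adjusted p of 0.05 from 0 to 905. As deposited 2739 were higher and 1148 lower, against 3445 and 885 with arrays centred and 2490 and 564 with the filter. Members at least 2-fold higher on control 2 than on control 1 numbered 3 or 4, and those at least 2-fold lower on maltodextrin 4 than on maltodextrin 3 numbered 7 or 8, under each normalization and with the filter on dim probe sets. No paired analysis was possible because the labels number the samples as 1 series and the groups share no number. Adipoq, Plin1, Lep and Ucp1 had means below the receptor level, and Cfd was below the level of the array itself on control 1 and maltodextrin 4, so these values lie near background.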
